A study of Mus musculus with 12 samples.

Results

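Livers that had lost 80% of their mass were compared on postoperative day 3 between an arm named HC (PH80_HC, 3 libraries) and an arm given G-CSF and HNF4a (PH80_G+H, 3 libraries). The comparison was defined by these 6 of the 12 libraries of the series and by genes that reached 10 in 3 or more of the 6, which were 12266 of the 13554 genes in the deposited table. All mice were wild-type C57Bl/6J males and the tissue was liver. The other libraries came from mice with a 70% resection (PH70, 3 libraries) and from mice with the 80% resection named without an added arm (PH80, 3 libraries), also on day 3. They entered the fit for the estimate of the spread, and their levels are given as reference points. The sources used here do not say what HC stands for, how and at which dose G-CSF and HNF4a were given, or how old the mice were. Nothing states whether replicate libraries of an arm are separate mice, and a p-value therefore reflects library-to-library spread that could be technical.

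Partial hepatectomy removes part of the liver, and the remaining hepatocytes then enter the cell cycle while they keep up metabolism and secretion. G-CSF is the growth factor of neutrophilic granulocytes and acts through the receptor encoded by Csf3r, and HNF4a is a transcription factor that maintains hepatocyte identity. Several systems named below are active in liver. Type I interferon acts through transcription factors that include STAT2 and IRF9, which bind the interferon-stimulated response element and switch on antiviral genes. Pulsatile growth hormone, acting through STAT5, maintains male-type hepatocyte genes such as the major urinary proteins (Mup), while Cux2 and several Cyp2c genes are known as female-type liver genes in mice.

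Depth, as reads recovered from the normalised values, was 36029941, 40747136 and 23512735 reads for PH80_HC replicates 1 to 3 and 13108757, 44526542 and 32568695 for PH80_G+H, and the shallowest library of the series had 9720887. At these depths a value of 10 corresponded to between 4.48 and 20.2 reads. Alb, the hepatocyte product albumin, made up between 6.74% and 11.7% of all values in each library. PH80_HC replicate 3 and PH80_G+H replicate 2 stood at opposite ends among the 6 libraries in their trend with transcript length, at -0.28 and 0.23 log2 units per doubling. Ribosomal protein genes in these libraries lay 1.18 above and 0.89 below the mean of the 12 libraries on the log2 scale. Counts without this pair of libraries are given beside the gene lists described below where they differ by more than 1.5 times. Hnf4a itself did not pass the test: it was 14092 ± 1691 (SD, n = 3) in PH80_HC and 12248 ± 1633 in PH80_G+H, a log2 difference of 0.20 with a 95% interval of -0.30 to 0.71. Csf3r was 105 ± 19.7 and 87.6 ± 51.7, and Csf3, the gene of G-CSF, was not analysed here.

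Few genes separated the arms past the threshold. Antiviral interferon genes (Dhx58, Ifit1, Oasl1, Usp18, Rtp4, Oasl2, Rsad2) and major urinary protein genes (Mup1, Mup7) were lower in PH80_HC, and the chemokines Ccl5 and Cxcl9, the transcription factor Cux2 and the acyl-CoA thioesterase Acot3 were higher. In all, 8 genes were higher in PH80_HC (0.0652% of the tested genes) and 18 were lower (0.147%) at an adjusted p under 0.05 in limma with Benjamini-Hochberg adjustment. At an unadjusted p under 0.05, 870 genes were higher (7.09%) and 802 lower (6.54%). All 3 PH80_HC values lay above all 3 PH80_G+H values in 1055 genes (8.6%) and below them in 1027 (8.37%). On the log2 scale the mean was higher in PH80_HC in 6365 genes and lower in 5901. The count models run on the recovered reads called more: edgeR called 19 higher and 28 lower and kept all 26 genes, and DESeq2 called 174 higher (1.42%) and 134 lower (1.09%) and kept 25, giving no adjusted p for Cux2. With every library scaled to the same total, the median of all genes moved from 0.018 to -0.21 and the calls to 7 higher and 33 lower.

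The calls depended on single libraries. Of the 26 genes, 2 (Dhx58 and Mup1) were still called without PH80_HC replicate 3, 10 without replicate 2 and 20 without replicate 1. They were 5, 5 and 3 without PH80_G+H replicate 1, 2 or 3, and 16 and 11 without PH70 replicate 1 or 2. Leaving out PH80 replicate 1 or 2 raised the number of calls to 42 and 58, leaving out PH70 replicate 3 to 39 and leaving out PH80_HC replicate 1 to 43. No called gene changed its direction under any of the 28 alternative settings. Without both PH80_HC replicate 3 and PH80_G+H replicate 2, only Mup1 passed, and at an unadjusted p under 0.05 the genes numbered 329 higher and 312 lower.

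**Figure D1:**
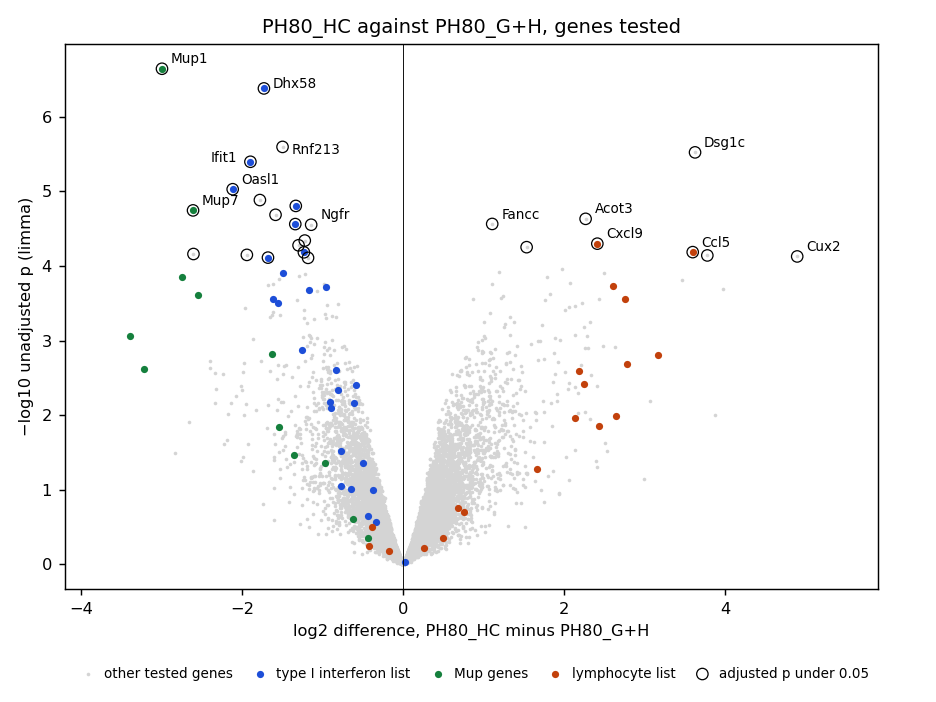
Log2 difference between PH80_HC and PH80_G+H (horizontal axis, positive where PH80_HC is higher) against −log10 of the unadjusted limma p (vertical axis) for 12266 genes, with the type I interferon list in blue, the Mup genes in green, the lymphocyte list in orange and black rings around the 26 genes with an adjusted p under 0.05. Blue and green points lie mostly on the left and orange points mostly on the right, and Mup1 and Dhx58 have the smallest p.

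Type I interferon response genes were lower in PH80_HC than in PH80_G+H. Of 27 tested members of the list, 7 passed the test, all of them lower in PH80_HC, 26 had the lower mean in PH80_HC, and in 20 of 27 (74.1%) all PH80_HC libraries lay below all PH80_G+H libraries. The list median was -0.91 on the log2 scale, against 0.018 for all tested genes, and ranged from -1.13 to -0.85 under the alternatives. At an unadjusted p under 0.05, 21 members were lower, and 22 without PH80_HC replicate 3 and PH80_G+H replicate 2. DESeq2 called 15 of the members lower.

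Dhx58 encodes LGP2, a sensor of viral RNA, and lies on chromosome 11, 100694884 to 100704271 (GRCm38, minus strand). Its value was 224, 153 and 199.8 in PH80_HC and 616, 661 and 618 in PH80_G+H. The arms did not overlap, and the spread within each was small against the gap. The log2 difference was -1.73 (SE 0.19) with an adjusted p of 0.00255, and the call held when any single library was left out. Ifit1, which binds viral RNA that lacks a host-type cap, lies on chromosome 19, 34640871 to 34650009 (plus strand). It stood at 104, 121 and 99.9 against 476, 354 and 393, so the lowest PH80_G+H library was well above the highest PH80_HC library. The log2 difference was -1.89 (SE 0.26) (adjusted p = 0.00981), and the call was lost without PH80_HC replicate 3 or without PH80_G+H replicate 1 or 3. Oasl1, a member of the oligoadenylate synthetase family (chromosome 5, 114923240 to 114937915, plus strand), had the largest difference of the list. It was 512, 244 and 383 against 1453, 2011 and 1337, a log2 difference of -2.12 (SE 0.31) with an adjusted p of 0.0191.

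The other called members differed by smaller amounts. Usp18, which removes the ubiquitin-like protein ISG15 from its targets, was 289.9, 411 and 243 in PH80_HC and 857, 679 and 798 in PH80_G+H (log2 difference -1.33, adjusted p = 0.024). Rsad2, the antiviral radical-SAM enzyme viperin, was 135, 166 and 101 against 557, 400.2 and 338 (-1.68, adjusted p = 0.0367). Rtp4, an interferon-induced transporter protein, differed by -1.34 (adjusted p = 0.0245) and Oasl2, related to Oasl1, by -1.23 (adjusted p = 0.0367). The libraries of the arms did not overlap in any of these genes. Each of the calls of Oasl1 and Usp18 was lost without PH80_HC replicate 3 and without any PH80_G+H replicate. Those of Rtp4, Oasl2 and Rsad2 were also lost without PH80_HC replicate 1, those of Rtp4 and Rsad2 without PH80_HC replicate 2, and those of Oasl2 and Rsad2 without PH70 replicate 1 or 2.

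Rnf213, a very large ubiquitin ligase that was not on the list and is known to be interferon-inducible, moved the same way. It lies on chromosome 11, 119393100 to 119487418 (plus strand) and was 726, 975 and 621 in PH80_HC and 2033, 2232 and 2182 in PH80_G+H. The log2 difference was -1.50 (SE 0.19) with an adjusted p of 0.00917, and the call was lost without PH80_HC replicate 3 or PH80_G+H replicate 3.

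Promoter sequence is shown for Ifit1 and Rsad2 because these are the called interferon genes whose RefSeq window (250 bases before to 50 after the start, build GRCm38.p6) holds, on either strand, the core letters of the interferon-stimulated response element, searched as GAAA, NN (any 2 bases) and GAAA in 1 run. Capitals mark each match, and both sequences run 5′ to 3′ on the gene's strand, upstream of the start.
Ifit1, chr19:34640760-34640838, plus strand: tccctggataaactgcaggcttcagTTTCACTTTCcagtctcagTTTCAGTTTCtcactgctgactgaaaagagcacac
Rsad2, chr12:26456538-26456597, minus strand: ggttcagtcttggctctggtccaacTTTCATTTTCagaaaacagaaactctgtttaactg
Ifit1 held 2 matches and Rsad2 held 1, each seen here on the opposite strand of the searched letters. The letters stood in 12 of the 20 tested members of the interferon list that matched a RefSeq window (60%), in 2 of the 4 called ones that matched and in 10 of the 16 others (62.5%). They stood in 387 of 9858 tested genes (3.93%) and in 1131 of all 32851 windows (3.44%). A match describes the letters of this window and does not show that the element is used.

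For the 7 called interferon genes and Rnf213, PH80_G+H had the highest mean of the 4 groups and PH80_HC the lowest. Dhx58 was 255 ± 42.7 in PH80 and 332 ± 33.4 in PH70, Ifit1 132 ± 47.2 and 142 ± 1.39, and Rnf213 1034 ± 43.6 and 1071 ± 225 (SD, n = 3 each). Oasl1 was closest to PH80_G+H elsewhere, with 1463, 829 and 907 in PH80. The mean of PH80_G+H was the highest of the 4 groups in 24 of the 27 members, while this held for 2100 of all 12266 tested genes. The mean of PH80_HC was the lowest of the 4 in 14 of the 27, and in 3115 of all 12266 tested genes.

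**Figure D2:**
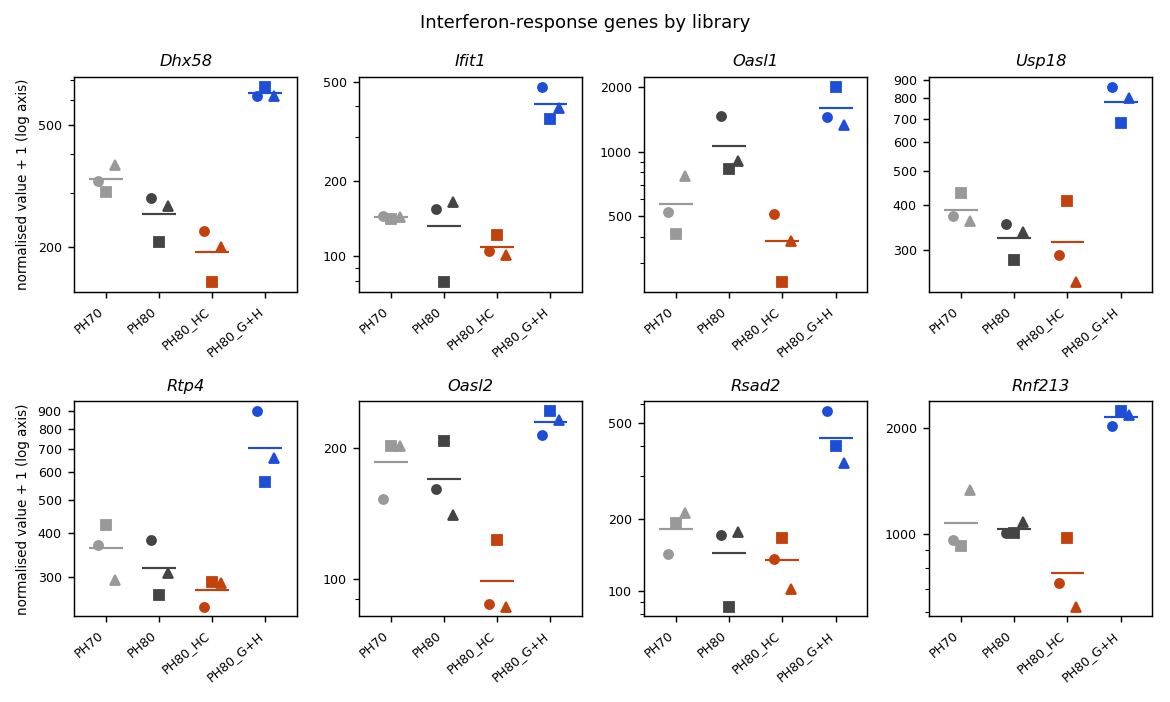
Normalised value plus 1 on a log axis for 8 interferon-response genes in all 12 libraries, with 1 symbol per replicate (circle 1, square 2, triangle 3) and a line at the group mean. In each panel the 3 PH80_G+H points lie above the 3 PH80_HC points, and in all panels but that of Oasl1 also above all PH80 and PH70 points.

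Members of the list that missed the threshold mostly pointed the same way. Genes in this and the next paragraph are named after their values were seen unless stated. Isg15, the ubiquitin-like modifier itself, was 287, 267 and 358 against 1161, 700.5 and 984 (log2 difference -1.62, adjusted p = 0.0629). Ifi44 differed by -1.49 (adjusted p = 0.0501) and the nucleotide kinase Cmpk2 by -1.55 (0.0672). Of the transcription factors that carry the signal, Irf9 differed by -0.61 (adjusted p = 0.207) and Irf7 by -0.33 (0.607), and Irf7 overlapped between the arms.

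The interferon-inducible GTPases, which are known mainly as targets of interferon gamma, lay on both sides. Of 16 tested members 0 were called in limma, with 4 higher and 1 lower at an unadjusted p under 0.05 and in DESeq2 alike. Their median was -0.15 and changed sign under 3 of the alternatives, with a range from -0.38 to 0.062. Gbp2 was 206, 308 and 209 in PH80_HC and 109, 158 and 93.1 in PH80_G+H, and Ifi47 1061, 1137 and 1126 and 681, 565 and 730.2, both higher in every PH80_HC library. Irgm1 was 970.2, 1116 and 782 and 1593, 1434 and 1492, lower in every PH80_HC library. Tgtp1, named by rule, was 134, 298 and 58.4 and 51.5, 48.0 and 61.2 and overlapped between the arms, with a log2 difference of 1.30 (adjusted p = 0.27). The response element letters stood in 9 of the 10 members that matched a promoter window (90%).

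Major urinary protein genes were lower in PH80_HC. Mup1 (chromosome 4, 60498012 to 60501960, GRCm38, minus strand) had the smallest p of all genes. It was 71.3, 51.6 and 51.9 in PH80_HC and 567, 392 and 453 in PH80_G+H, so the arms were far apart against the spread within each. The log2 difference was -2.99 (SE 0.32), or 7.96-fold lower, with an adjusted p of 0.00255, and it passed under all 28 alternatives. Mup7 (chromosome 4, 60066469 to 60070475, minus strand) was 5544, 1729 and 1846 against 19164, 12784 and 16355, a log2 difference of -2.61 (SE 0.41) (adjusted p = 0.0245). PH80_HC replicate 1 lay between the other PH80_HC libraries and the PH80_G+H arm, and the call was lost without PH80_HC replicate 2 or 3 or any PH80_G+H replicate.

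Of 15 Mup genes in the table, 12 were tested, and all 12 had the lower mean in PH80_HC. The libraries did not overlap in 9 of them, 10 had an unadjusted p under 0.05, 2 were called in limma and 7 in DESeq2. Log2 differences ran from -3.39 to -0.43 with a median of -2.09. The most abundant members differed least: Mup20 was 63079.6 ± 15428 against 86184 ± 29270.2 and Mup3 78915 ± 51939 against 109250.0 ± 39007, and both overlapped between the arms. Many genes of the Mup cluster are near-identical copies, so reads may be split or shared between them and the values of single members are uncertain. Mup20 and Mup3 start at 62050234 and 62083476 on chromosome 4, apart from Mup1 and Mup7. As a share of all values, the sum over the 15 genes did not overlap between the arms. It was 0.499%, 0.396% and 0.686% in PH80_HC and 0.998%, 0.733% and 1.11% in PH80_G+H. The summed values themselves overlapped, at 145680, 84965.5 and 209256 in PH80_HC and 240749, 161371 and 246781 in PH80_G+H. On that scale PH80_HC replicate 3, the library with the largest total of all values, lay above PH80_G+H replicate 2. Mup20 and Mup3 made up most of the summed value in each library of the arms. Mup1 was 321, 155 and 282 in PH80 and 616, 517 and 285 in PH70, all above every PH80_HC library.

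Cux2, a homeobox repressor known to be female-type in mouse liver, was the gene with the largest difference. It lies on chromosome 5, 121856366 to 122050102 (minus strand). The value was 154, 391 and 165 in PH80_HC and 5.52, 5.44 and 8.16 in PH80_G+H, a log2 difference of 4.89 (SE 0.88) with an adjusted p of 0.0367. PH70 libraries were as low as PH80_G+H, at 8.47, 9.14 and 4.46, while PH80 replicate 2 was high, with 7.03, 135 and 5.21 in PH80. The call was lost without any single library of either arm and without PH70 replicate 1 or 2. Other genes known as female-type had higher values in PH80_HC without passing in limma. The cytochrome P450 gene Cyp2c38, which filled the higher direction of the naming rule, was 1042, 1442 and 942 against 529.8, 455 and 492 (adjusted p = 0.0501). Named after their values were seen, Cyp2c69 was 185, 554 and 157 against 27.6, 14.3 and 27.2 (adjusted p = 0.0526) and Cyp2c40 203, 351 and 187 against 38.6, 47.5 and 63.2 (0.223). Cyp2c38 and Cyp2c69 passed in edgeR (adjusted p = 0.042 and 0.0334) and in DESeq2 (0.000173 and 9.18e-07), and Cyp2c40 in neither. Cyp2c genes also form a cluster of similar copies, so their single values carry the same uncertainty.

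Of the 23 tested genes on the growth hormone and male-biased list, Cux2 was the called one, and the median was -0.10. In 3 members all PH80_HC libraries were above and in 5 below the PH80_G+H libraries. Feedback genes of STAT5 signalling, named after their values were seen, were among the 3. Socs2 was 351, 709 and 1162 against 177, 179.6 and 126 (log2 difference 2.05, adjusted p = 0.0698), and Cish 683, 659 and 1057 against 326, 182 and 161 (1.88, 0.137). The male-type fatty acid elongase Elovl3 was 412, 241 and 488 against 1379.7, 1208 and 1766 (-1.97, 0.154), and the male-type Selenbp2 10102, 4839 and 3096 against 16121, 15553 and 14526. DESeq2 called Socs2 (adjusted p = 0.000142) and Cish (0.00784) higher and Elovl3 (0.00786) lower. The PH80 libraries differed among themselves in these genes. Replicate 2 had the lowest Elovl3 (875, 313 and 2034 in replicates 1 to 3) and the lowest Selenbp2 (14517, 1167 and 12515) of the PH80 libraries, the highest Cux2 and the lowest Mup share of all values (0.476% against 1.52% and 1.25%). It also had the lowest level of the female-type genes Cyp2c69 (43.6, 11.2 and 62.5) and Cyp2c40 (74.5, 14.2 and 142), so the male- and female-type genes did not order these libraries in 1 way.

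Chemokine and lymphocyte genes were higher in PH80_HC. In the lymphocyte list, 2 of 19 tested members were called, Ccl5 and Cxcl9, 11 were higher and 0 lower at an unadjusted p under 0.05, and in 11 (57.9%) all PH80_HC libraries were above all PH80_G+H libraries. The median was 2.19, ranging from 1.55 to 2.70 under the alternatives, and DESeq2 called 10 higher. Without PH80_HC replicate 3 and PH80_G+H replicate 2 the median was 1.58 and 7 members were higher at an unadjusted p under 0.05. In whole liver, more cells of a type and more RNA per cell cannot be told apart.

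Ccl5, a chemokine that draws T cells and is itself made by them (chromosome 11, 83525778 to 83530518, minus strand), was 155, 245 and 328 in PH80_HC and 16.6, 11.9 and 30.6 in PH80_G+H. The log2 difference was 3.59 (SE 0.63), adjusted p = 0.0367. In PH80 it was 115, 24.7 and 11.5, all below the lowest PH80_HC library. Cxcl9, a chemokine induced by interferon gamma (chromosome 5, 92321347 to 92328079, minus strand), was 324, 754 and 458 against 92.0, 87.1 and 90.4, a log2 difference of 2.41 (SE 0.41) (adjusted p = 0.0367). The PH80_G+H libraries were nearly equal and the PH80_HC libraries differed among themselves, but none overlapped. Both calls were lost without PH80_HC replicate 2 or 3, any PH80_G+H replicate, or PH70 replicate 2, and that of Ccl5 also without PH70 replicate 1. Cxcl10, a related chemokine on the same list (named after its values were seen), had means of 87.5 ± 45.0 and 90.5 ± 23.1 and a log2 difference of -0.18, and overlapped.

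The rest of the list included T cell, cytotoxic and antibody genes. Named after their values were seen, the T cell co-receptor Cd8a was 31.6, 90.5 and 37.6 against 5.52, 2.47 and 6.12 (adjusted p = 0.139), the T cell receptor subunit Cd3g 15.4, 61.1 and 75.2 against 9.20, 5.44 and 10.2 (0.184) and the cytotoxic granule protease Gzmb 34.8, 86.3 and 41.5 against 3.68, 9.89 and 7.48 (0.0629). The antibody joining chain gene Jchain was 137, 224 and 214 against 53.3, 12.9 and 38.1 (0.0538), and the T cell adaptor Lat, which was not on the list, 41.3, 84.7 and 112 against 14.7, 9.89 and 12.2 (0.0501). Thy1, a surface protein of T cells that filled the higher direction of the naming rule, was 97.2, 153 and 176 against 29.4, 51.4 and 40.1 (0.0504). In each of these the arms did not overlap, but none passed in limma. The summed value of the 20 list genes in the table was 1042, 2281 and 2005 in PH80_HC, 565, 324 and 559.5 in PH80_G+H and 1053, 516 and 419 in PH80. The B cell genes Ms4a1, Cd79a and Cd79b and the helper T cell gene Cd4 overlapped between the arms, with log2 differences from -0.42 to 0.69. What part a shift in lymphocyte or macrophage RNA had in the other differences was not tested.

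Antigen presentation and macrophage genes mostly had higher means in PH80_HC, with 0 calls in either list by limma or edgeR. Of 19 tested antigen presentation genes, 13 were higher and 0 lower at an unadjusted p under 0.05, 12 (63.2%) did not overlap, all of them higher, and the median was 0.69. The class II genes led. Cd74, the invariant chain, was 2008, 3207 and 6369 against 774, 569.9 and 594 (log2 difference 2.43, adjusted p = 0.0629), and H2-Aa 673, 1385 and 1957 against 293, 188 and 267 (2.31, 0.0868). H2-Ab1 differed by 2.25, H2-Eb1 by 2.25 and Ciita, the class II transactivator, by 1.18. The class I gene H2-K1 differed by 0.61 (adjusted p = 0.3). DESeq2 called 6 members higher, and without PH80_HC replicate 3 and PH80_G+H replicate 2 the number at an unadjusted p under 0.05 was 7.

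In the macrophage and Kupffer list, 14 of 19 members (73.7%) were higher in every PH80_HC library and 11 had an unadjusted p under 0.05, 4 were called higher by DESeq2, with a median of 0.83. The complement gene C1qa was 2442, 2377 and 5561 against 1737, 1486 and 1161, the Kupffer cell receptor Vsig4 1136, 1583 and 1781 against 894, 622 and 753, Clec4f 3899, 4356 and 8162 against 3854, 2717 and 2599 and the colony-stimulating factor receptor Csf1r 1534, 1745 and 2639.8 against 1036, 988 and 734, with adjusted p between 0.135 and 0.25. PH80_HC replicate 3 had the highest value of all 4, and without it and PH80_G+H replicate 2 the list median was 0.61 with 3 members at an unadjusted p under 0.05. The summed value of the 19 genes was 33803, 36614 and 56610.3 in PH80_HC, 28489, 23055 and 21577 in PH80_G+H and 29533, 46585 and 22010.4 in PH80, so PH80 reached into the range of PH80_HC. The dendritic cell factor Batf3 was 81.8, 91.1 and 241 against 25.8, 20.8 and 30.6 (adjusted p = 0.0672). Genes in this and the preceding paragraph were named after their values were seen.

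Neutrophil genes did not differ by the test. All 19 were present, 14 were tested, 0 were called, 2 were higher at an unadjusted p under 0.05, and the median was -0.085, ranging from -1.09 to 0.13 under the alternatives. Without PH80_HC replicate 3 and PH80_G+H replicate 2, 0 had an unadjusted p under 0.05 and the median was -1.09. Their summed value was 50132, 5419 and 55045 in PH80_HC and 20981, 17008 and 14974 in PH80_G+H. In this sum, which the most abundant genes weigh on most, PH80_HC replicate 2 was the lowest of all 6 and the other PH80_HC libraries the highest. The mean log2 deviation of the 14 tested members from the mean of the 12 libraries gave another order. It was 0.071, -0.17 and 1.09 in PH80_HC and 0.61, -0.46 and 0.92 in PH80_G+H, with PH80_G+H replicate 2 the lowest. For Csf3r, the receptor of G-CSF, the log2 difference was 0.40 with a 95% interval of -0.85 to 1.65, so the data leave room for a change of either sign.

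**Figure D3:**
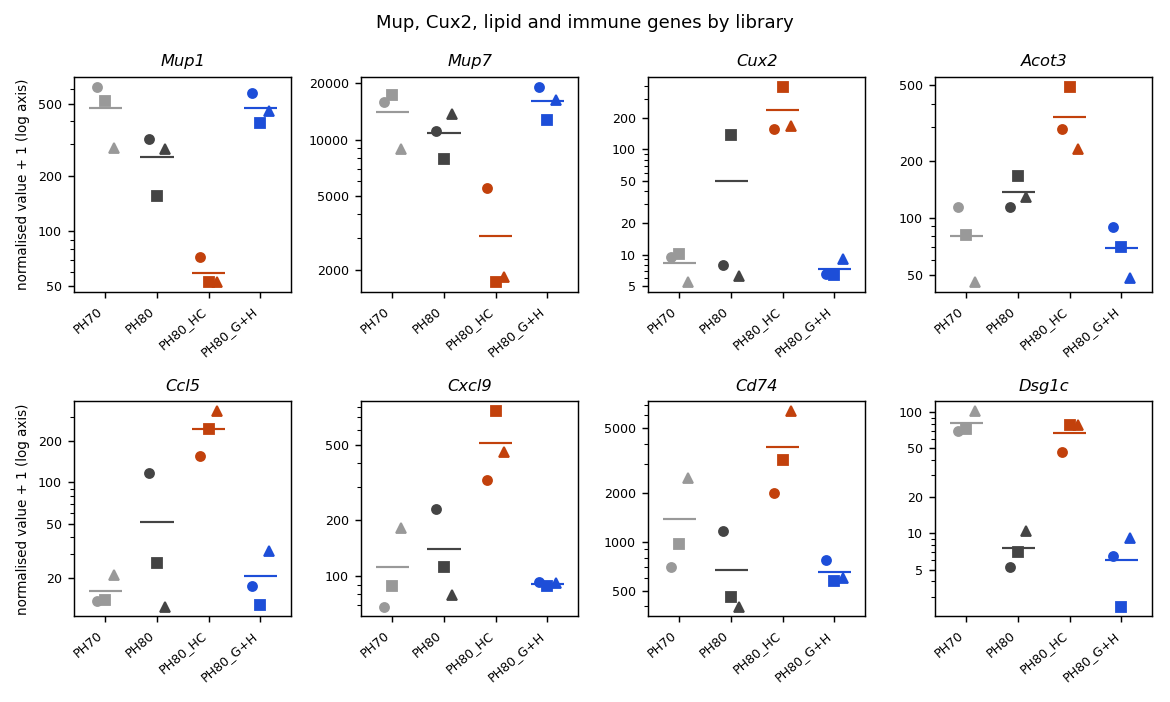
Normalised value plus 1 on a log axis for 8 genes in all 12 libraries, with 1 symbol per replicate (circle 1, square 2, triangle 3) and a line at the group mean. PH80_HC lies below PH80_G+H in Mup1 and Mup7 and above it in the other 6 genes, and Dsg1c is as high in PH70 as in PH80_HC.

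The remaining called genes covered several functions. Acot3, a peroxisomal acyl-CoA thioesterase (chromosome 12, 84052144 to 84060402, plus strand), was 292, 489.5 and 229.6 in PH80_HC and 88.3, 68.8 and 46.9 in PH80_G+H, a log2 difference of 2.27 (SE 0.36) (adjusted p = 0.0245). Its PH80 and PH70 means were 135 ± 27.2 and 79.4 ± 34.3. Fancc, a component of the Fanconi anaemia DNA repair complex, was 209.7, 237 and 246 against 114, 96.5 and 110.1 (1.11, adjusted p = 0.0245), and Pcp4l1 64.8, 81.6 and 85.6 against 29.4, 22.8 and 25.8 (1.53, adjusted p = 0.0367). These calls were lost without PH80_HC replicate 2 or 3, any PH80_G+H replicate or PH70 replicate 2, and that of Pcp4l1 also without PH70 replicate 1.

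Dsg1c and Apol11b passed but fell under the mean of 50 in the naming rule. Dsg1c, a desmosomal cadherin, was 45.3, 76.3 and 76.5 in PH80_HC and 5.52, 1.48 and 8.16 in PH80_G+H. The log2 difference was 3.62 (SE 0.48) (adjusted p = 0.00917), and among single libraries left out the call was lost only without PH80_HC replicate 3. PH80 was as low as PH80_G+H, at 4.22, 5.98 and 9.37, and PH70 as high as PH80_HC, at 68.4, 71.3 and 100.3. Apol11b, of the apolipoprotein L family, was 32.4, 46.3 and 55.8 against 7.36, 1.48 and 0.680 (3.78, adjusted p = 0.0367). Its PH80 and PH70 means were 1.53 ± 1.12 and 2.70 ± 1.52, so that PH80_HC was the group in which this gene was present above a few units. The call was lost without any PH80_HC replicate, PH80_G+H replicate 2 or 3, or PH70 replicate 1 or 2.

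Among the genes lower in PH80_HC, Nat8f5, of the N-acetyltransferase 8 family, was 133, 75.3 and 84.3 against 331, 348 and 422 (-1.94, adjusted p = 0.0367), and PH80 and PH70 stood near PH80_G+H, at 368 ± 181 and 391 ± 27.8. Tmem200b, a membrane protein gene, differed by -1.78 (adjusted p = 0.0229), Sgsm1, a regulator of small G proteins, by -1.30 (0.0367) and the zinc finger gene Zfp324 by -1.22 (0.0367). Ngfr, the low-affinity neurotrophin receptor carried by stellate cells, was 167, 153 and 136 against 302, 357 and 349 (-1.14, adjusted p = 0.0245). Outside the naming rule, Cntnap1 was 18.6, 22.6 and 20.8 against 71.7, 55.9 and 64.6 (0.0245), the calcium sensor Hpca 4.86, 6.84 and 2.59 against 20.2, 42.0 and 39.4 (0.0367) and the predicted gene Gm11437 89.9, 72.6 and 64.9 against 149, 166 and 203 (0.0367). No library of 1 arm overlapped with the other in these 8 genes. All 8 calls were lost without PH80_HC replicate 3 and without any single PH80_G+H replicate. Those of all but Cntnap1 and Tmem200b were also lost without PH80_HC replicate 2 or PH70 replicate 2, those of Nat8f5, Zfp324, Gm11437 and Hpca without PH70 replicate 1, and that of Hpca without PH80_HC replicate 1. Those of Gm11437 and Hpca were lost without PH80 replicate 3.

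Cholesterol synthesis genes had lower means in PH80_HC throughout, without a call. All 22 tested genes had the lower mean, 13 had an unadjusted p under 0.05, 7 (31.8%) did not overlap, and the median was -0.70, ranging from -0.94 to -0.58 under the alternatives. DESeq2 called 4 of them lower. Without PH80_HC replicate 3 and PH80_G+H replicate 2, 7 had an unadjusted p under 0.05. Named after their values were seen, Sqle, squalene epoxidase, was 827, 1421 and 846 against 2123, 1810.1 and 1798 (log2 difference -0.93, adjusted p = 0.156). For Hmgcs1, the synthase ahead of HMG-CoA reductase, PH80_HC replicate 2 stood close to PH80_G+H, at 2979, 7456 and 2776 against 11269.7, 8585 and 7917. Aacs, which feeds ketone bodies into lipid synthesis, was 377, 675 and 738 against 1606, 1573 and 1822 (-1.54, 0.0524). In the lipogenesis list, 7 of 22 were lower and 1 higher at an unadjusted p under 0.05, 6 did not overlap (27.3%, all lower), and the median was -0.29. Without the same pair of libraries 2 were lower and 0 higher at an unadjusted p under 0.05. Apoa4, an apolipoprotein secreted on lipid particles, went the other way, at 93540.4, 45246 and 152215 against 17995, 19784 and 24286 (2.07, adjusted p = 0.053). Aacs and Apoa4 passed in edgeR (adjusted p = 0.0468 and 0.042) and in DESeq2 (0.000384 and 3.8e-06). Sqle passed in DESeq2 (0.0469) and not in edgeR, and Hmgcs1 in neither.

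Stellate and matrix genes included the called Ngfr. Of 24 tested, 20 had the lower mean in PH80_HC, 8 (33.3%) did not overlap, all of them lower, and the median was -0.70. Without PH80_HC replicate 3 and PH80_G+H replicate 2 the median was -0.19 and 2 members had an unadjusted p under 0.05. The retinol esterifying enzyme Lrat, typical of stellate cells, was 266, 303 and 182 against 373, 559 and 409, and the basement membrane collagen Col4a1 1256, 1093 and 772 against 1599, 3510.4 and 2183. The crosslinking enzyme gene Loxl2 was 129, 118 and 40.2 against 167, 369 and 263. In all 3 genes PH80_HC replicate 3 was the lowest and PH80_G+H replicate 2 the highest of the 6. These 3 genes were named after their values were seen, with adjusted p between 0.173 and 0.185.

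Other hepatocyte genes differed in a mixed way. Of 20 pericentral hepatocyte genes 8 (40%) were higher and 2 (10%) lower in every PH80_HC library, with 0 calls and a median of 0.31, which was 0.082 with every library at the same total. At an unadjusted p under 0.05, 5 were higher and 1 lower, and 0 in either direction without PH80_HC replicate 3 and PH80_G+H replicate 2. Cyp2e1, a pericentral cytochrome P450, was 69406, 60255 and 53074 against 37109, 31327 and 32133 (log2 difference 0.86, adjusted p = 0.298), and its PH80 mean was 14958 ± 7763. Glul, glutamine synthetase of the cells around the central vein, was 16988, 13704 and 18418 against 11422, 9511 and 7639.9, and the periportal Cyp2f2 8740.4, 5054 and 6758 against 16106, 14703 and 13432 (adjusted p = 0.267 and 0.148). Glul and Cyp2f2 were named after their values were seen. Of 16 periportal genes 2 (12.5%) were higher and 2 (12.5%) lower in every PH80_HC library, with 0 calls and a median of -0.10. At an unadjusted p under 0.05, 1 was higher and 3 lower, and 0 and 2 without PH80_HC replicate 3 and PH80_G+H replicate 2. Acute phase genes had a median of 0.70 with 0 calls, 6 members higher at an unadjusted p under 0.05 and 4 of 22 (18.2%) without overlap. Their summed value was 1790250.0, 629018 and 3422030.0 in PH80_HC and 1163010.0, 659721 and 908158 in PH80_G+H, so the PH80_HC libraries lay on both sides of the other arm. Without the pair of libraries named above, 0 members were higher and 1 was lower at an unadjusted p under 0.05, and the median was 0.45. Cyp7a1, which catalyses the rate-limiting step from cholesterol to bile acids, was 129, 1410.2 and 288 against 960.3, 1177 and 1305 and also overlapped.

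Stress-response genes, named here after their values were seen, went in both directions without passing in limma. In the unfolded protein and integrated stress list, 1 of 24 genes (4.17%) was higher and 2 (8.33%) lower in every PH80_HC library. These were 5 of 18 (27.8%) and 0 in the oxidative stress list, and 0 and 3 of 16 (18.8%) in the immediate early list. The clock list had 1 (5%) and 3 of 20 (15%), and all tested genes 8.6% and 8.37%. Medians of the lists were -0.15, 0.065, -0.39 and -0.067 in that order, with 0 calls. The stress cytokine Gdf15 was 667, 574 and 358 against 1284, 1211 and 1294 (log2 difference -1.29, adjusted p = 0.0504), with 512 ± 118 in PH80 and 1829 ± 425 in PH70. Chac1, a glutathione-degrading enzyme of the integrated stress response, was 168, 37.9 and 125 against 23.9, 10.4 and 23.8 (2.29, 0.131), and Nqo1, a quinone reductase controlled by NRF2, 941, 925 and 594 against 533, 358 and 331 (1.01, 0.117). Of the immediate early genes, Zfp36, which destabilises cytokine mRNA, was 1660.1, 2268 and 931 against 3729, 2884 and 3911 and the phosphatase Dusp1 499.7, 424 and 387 against 758, 1288 and 1127, both lower in every PH80_HC library (adjusted p = 0.0888 and 0.117). The clock gene Npas2 was 29.96, 31.1 and 28.5 against 107, 121 and 64.6 (-1.62, 0.0799). All genes named in this paragraph passed in DESeq2, with adjusted p from 0.000626 (Gdf15) to 0.00862 (Nqo1). In edgeR only Gdf15 passed (0.0474).

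Cell cycle and vascular genes, which the series' title puts at its centre, did not pass in limma in this comparison. In the mitosis list 28 of 29 genes had the higher mean in PH80_HC, 5 were higher at an unadjusted p under 0.05 (3 without PH80_HC replicate 3 and PH80_G+H replicate 2), 0 were without overlap, and the median was 0.47. PH80_G+H had the lowest mean of the 4 groups in 28 of the 29, and in 2238 of all 12266 tested genes. PH80_HC had the highest mean in 0 of the 29, and in 3629 of all 12266. Mki67, a marker of cycling cells, was 897, 1852 and 1637 against 1038, 1192 and 772, a log2 difference of 0.50 (SE 0.33) with an adjusted p of 0.492. PH80_HC replicate 1 was inside the range of the other arm, and PH80 was 1948 ± 1016. In the S phase list 3 of 30 genes were higher at an unadjusted p under 0.05, with a median of 0.12 that was -0.11 with every library at the same total and 0.31 without that pair. Pecam1, an endothelial adhesion protein, was 363, 399 and 431 against 436, 562 and 548 (log2 difference -0.37, adjusted p = 0.452), lower in every PH80_HC library. Stab2, a scavenger receptor of sinusoidal endothelium, had an interval of -0.37 to 0.60 and Vegfa, the endothelial growth factor, of -0.80 to 0.50. The pan-endothelial and sinusoidal lists had 0 calls and medians of -0.11 and -0.28. In the sinusoidal list 4 of 18 genes (22.2%) were lower and 1 higher in every PH80_HC library. At an unadjusted p under 0.05, 3 of them were lower and 1 higher. Without PH80_HC replicate 3 and PH80_G+H replicate 2 these were 5 lower and 0 higher, with a median of -0.47. The pan-endothelial list had 1 lower and 1 higher at that p, and 1 lower and 0 higher without the pair.

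The other genes named in every case overlapped between the arms. Alb had a log2 difference of 0.089 (95% interval -1.53 to 1.71) and the fetal gene Afp of -0.049 (-1.08 to 0.98). The rhythmic genes Dbp, Upp2 and Rgs16 differed by 0.26, -0.073 and 0.44, each with an interval that included 0. In Dbp and Upp2 both treated arms stood between the PH80 and PH70 means, with Upp2 at 2327 ± 1215 in PH80_HC, 2412 ± 959.7 in PH80_G+H, 354 ± 133 in PH80 and 4398 ± 2044 in PH70.

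**Figure D4:**
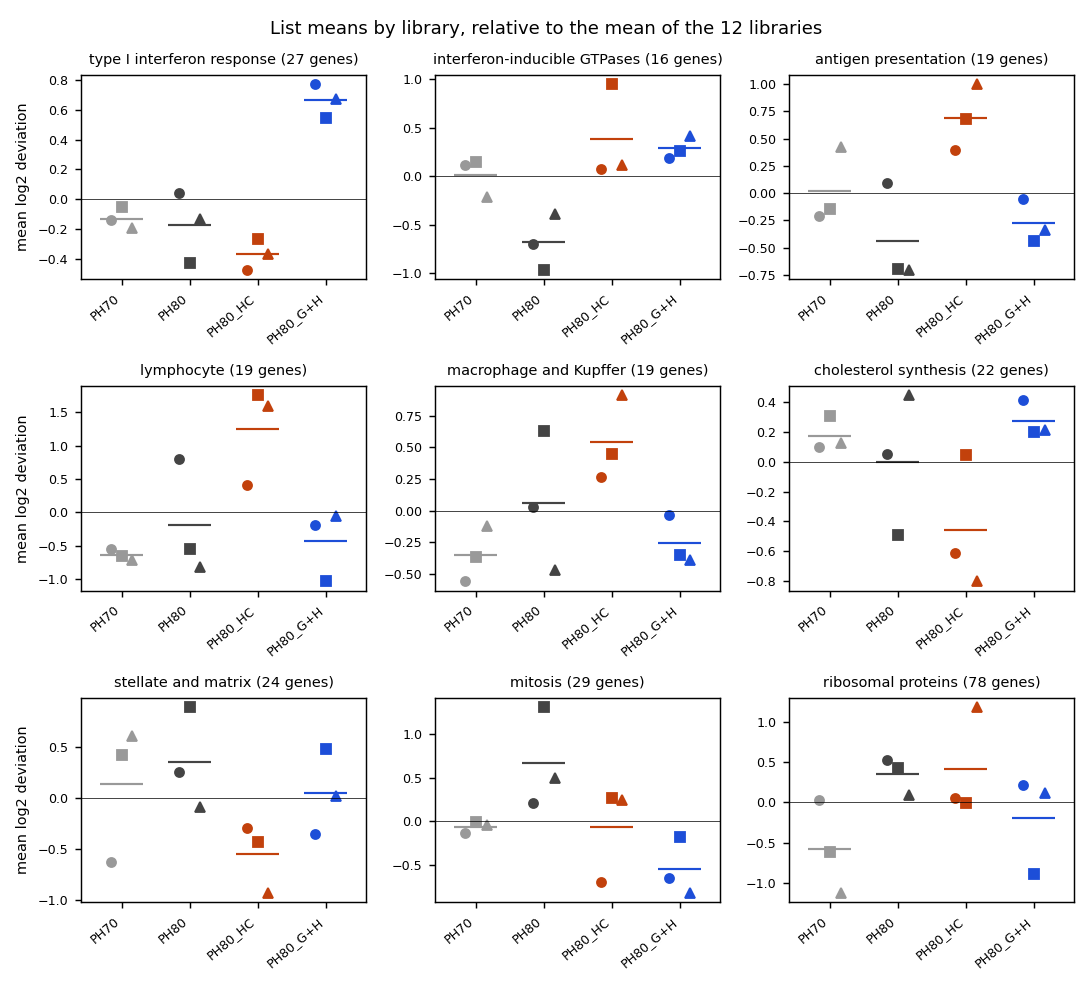
Mean log2 deviation of the tested members of 9 gene lists from the mean over the 12 libraries, by group, with 1 symbol per replicate (circle 1, square 2, triangle 3) and a line at the group mean. The PH80_G+H libraries lie above all others for type I interferon genes, the PH80_HC libraries lie above PH80_G+H for antigen presentation, lymphocyte and macrophage genes, and ribosomal protein genes are highest in PH80_HC replicate 3 and low in PH80_G+H replicate 2.

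Across the 37 lists, ribosomal protein genes apart, 4 held a called gene, and in the other 33 the median ran from -0.70 to 0.83. The ribosomal protein genes, which were added as a marker of library differences, had a median of 0.60, with 0 of 78 called, and -0.12 without PH80_HC replicate 3 and PH80_G+H replicate 2. Called genes had a median transcript length of 3027 bases for those higher and 2297 for those lower, against 3384 for all tested genes, and the part of the length trend in the calls was not tested beyond its removal, which left 46 calls including 25 of the 26. Markers of tissues that could be carried over in dissection were few among the tested genes: 1 of 10 muscle genes, 2 of 10 pancreas genes and 4 of 10 fat and mesothelium genes were tested, and 0 were called by limma, edgeR or DESeq2 or had an unadjusted p under 0.05. The summed pancreas value was 488, 526 and 930.1 in PH80_HC and 763, 335 and 625 in PH80_G+H, which overlapped. The fat and mesothelium sum was 355, 328 and 257 against 156, 249 and 141, without overlap, and all 4 tested members had the higher mean in PH80_HC, with a median of 0.57. Without the pair of libraries that median was 2.29 and 3 members had an unadjusted p under 0.05. The part of such tissue in the other results was not tested.

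**Figure D5:**
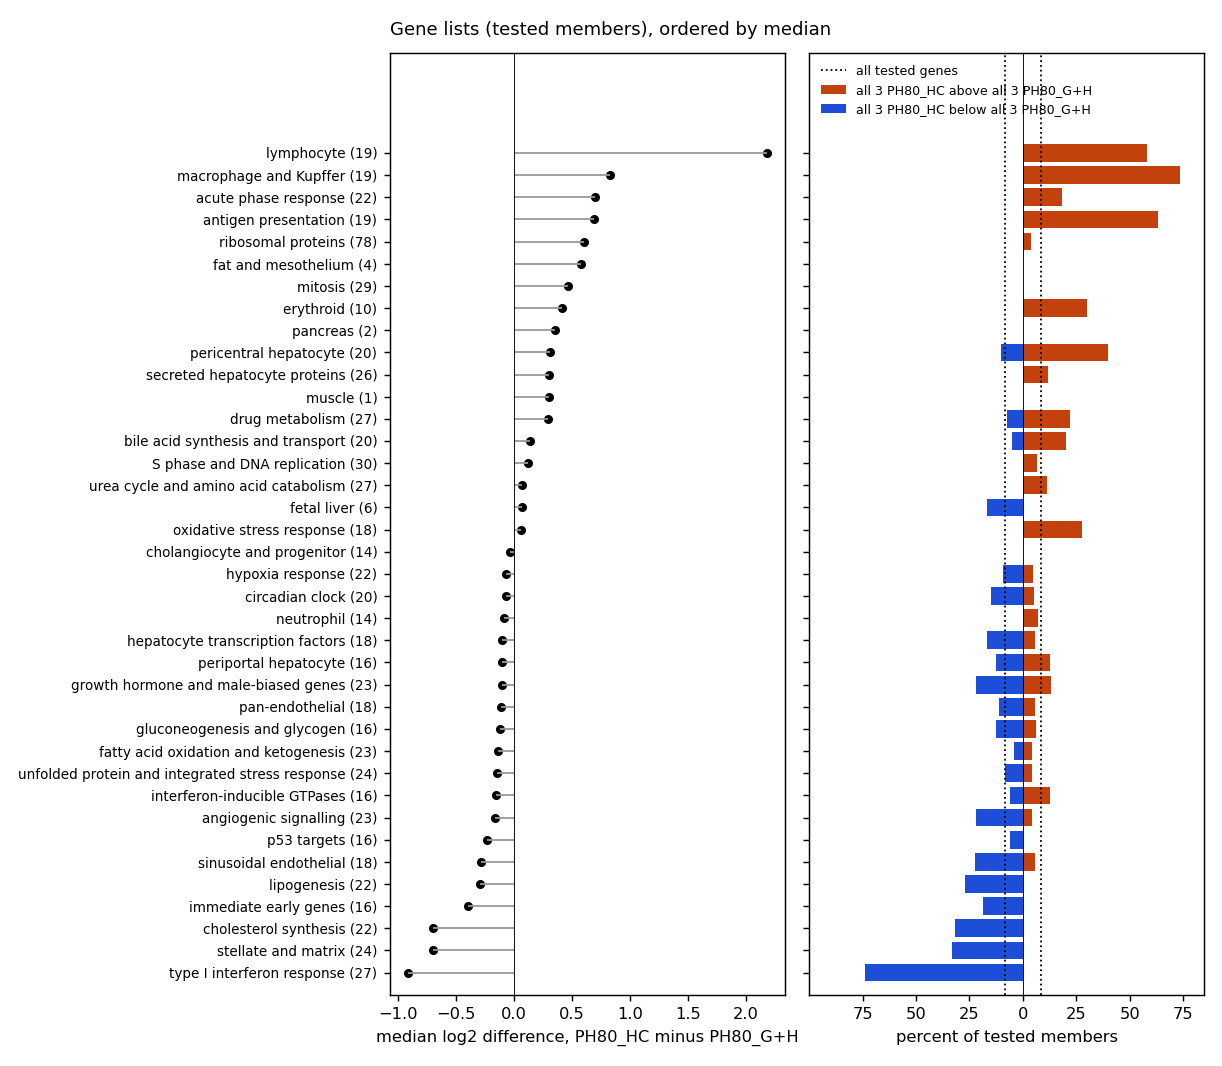
Left, median log2 difference of each gene list (PH80_HC minus PH80_G+H, number of tested genes in brackets); right, percent of its tested members in which all 3 PH80_HC values lay above (orange) or below (blue) all 3 PH80_G+H values, with dotted lines at 8.6% and 8.37% for all tested genes. The type I interferon list is at the bottom with 74.1% below, and the lymphocyte, macrophage and antigen presentation lists reach 57.9%, 73.7% and 63.2% above.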

How the data were processed

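RNA of 12 mouse liver samples was sequenced after TruSeq Stranded mRNA library preparation, per the labels' protocols. Reads were handled on build GRCm38 (mm10) with DESeq2, per the submitters' processing notes, with aligner, counter and annotation not given in the sources used here. In the deposited table each value is a normalised signal, a count that the authors scaled by a size factor of its library. In each library 100% of values came out as whole reads within 0.01, and these recovered reads were used for edgeR and DESeq2. Mitochondrially encoded genes were not analysed here. Columns were assigned to samples by their labels.

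Values were analysed as log2(value + 1) with limma 3.58.1 (R 4.3.3), group as the single factor over all 12 libraries, an intensity trend, two-sided tests and Benjamini-Hochberg adjustment over 12266 genes with a threshold of 0.05. Differences are on this scale and understate the change of genes with low values. edgeR 4.0.16 (quasi-likelihood) and DESeq2 1.42.0 were alternatives, and the fit was tested on simulated data. The simulation used the same spread setting for all genes and no trend with transcript length. It therefore does not cover the library differences described above. The 28 alternatives also changed the pseudocount, the filter, the scaling, the libraries and the length and GC trend. Coordinates are from GENCODE M21.

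Members and lists (37 lists, 760 entries, 691 tested) were chosen with earlier results of these data known. Named genes are up to 15 per direction with the largest difference among called genes with a mean of at least 50, no overlap and no predicted symbol, filled to 8 by p, up to 4 called members per list, and a fixed set (Afp, Alb, Csf3, Csf3r, Cyp2e1, Cyp7a1, Dbp, Hnf4a, Mki67, Pecam1, Rgs16, Stab2, Tgtp1, Upp2, Vegfa). Others are marked as named after their values were seen.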

Additional observations from a re-analysis of the deposited data

How the results depend on the processing

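The number of calls (26, of which 8 higher and 18 lower in PH80_HC) moved by over 1.5 times as follows. Genes called higher numbered 16 with a pseudocount of 5, 14 with no filter on low values, 5 with a value of at least 50 required, and 19 with only the 6 libraries of the arms. Library weights gave 55 calls (24 higher, 31 lower), equal library totals 40 (33 lower), removal of the length and GC trend 46 (17 higher, 29 lower), edgeR 47 (19 higher, 28 lower) and DESeq2 308 (174 higher, 134 lower). Leaving out 1 library gave between 2 and 58 calls, 0 to 19 higher and 2 to 39 lower. Leaving out both PH80_HC replicate 3 and PH80_G+H replicate 2 gave 1 call, 0 higher and 1 lower, from fewer samples. The causes of the other shifts were not tested.

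The replicate block gave 8 calls, 2 higher and 6 lower (Acot3, Dsg1c, Dhx58, Ifit1, Mup1, Mup7, Oasl1 and Rnf213), and 20 with the length and GC trend removed as well, 4 of them higher. The labels do not state a pairing of the arms by replicate number. Deviations of same-numbered libraries from their arm means correlated at -0.23, 0.20 and 0.20 for numbers 1 to 3. The highest correlations were 0.45 (PH80_HC replicate 3 with PH80_G+H replicate 1) and 0.42 (PH80_HC replicate 1 with PH80_G+H replicate 2). With 3 libraries per arm, each centred on the arm mean, these values cannot show whether libraries were paired. The reason for the lost calls was not tested.

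None of the 26 called genes changed sign under any alternative. Genes far from the threshold did. Afp turned to 0.33 with library weights, 0.28 in edgeR, 0.29 in DESeq2 and 0.88 without both libraries above. With equal totals Hnf4a was -0.028, Alb -0.14 and Stab2 -0.12, and without both libraries Csf3r was -0.059 and Stab2 -0.10. Leaving out 1 library gave a range of -0.46 to 0.77 for Afp, -0.12 to 0.20 for Alb, -0.047 to 0.29 for Stab2, -0.51 to 0.050 for Vegfa, -0.47 to 0.16 for Upp2, -0.040 to 0.46 for Dbp and -0.64 to 1.02 for Rgs16. Depth limits genes under a value of 10, where the shallowest of the 6 libraries holds 5.44 reads.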
